A study of Mus musculus with 31 samples.

Results

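The MHC class I and peptide transport genes are 7 of the 22609 genes listed in each count table, namely H2-K1, H2-D1, B2m, Tap1, Tap2, Tapbp and Nlrc5. They were chosen by name, and their read counts were taken from the 31 bulk RNA-seq libraries of mouse masseter muscle (MM) and expressed as CPM, counts scaled to library size with edgeR's TMM factors. MM is the chewing muscle into which either complete Freund's adjuvant (CFA), an oil emulsion that provokes inflammation, or collagenase type 2 (Col), an enzyme that digests collagen, was injected to produce myogenous hypersensitivity. Each library came from 1 mouse. All mice were adult C57BL/6J males. The CFA experiment had 3 mice at 1d, 3 mice at 5d and 3 vehicle mice. The Col experiment had 4 mice in each of the 0.2U groups named 1C and RPC, 4 mice at 2d, 3 mice at 6d and 4 mice at 12d after 10U Col, and 3 vehicle mice, and the labels do not say which day 1C and RPC stand for. The study's text gives 1d and 14d for the groups that the labels call 2d and 12d, and the labels' names are kept here. The day on which vehicle mice were sampled is not given in the sources used here.

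Class I molecules carry peptides from inside the cell to its surface, where CD8 T cells and NK cells read them. The proteasome cuts proteins into peptides, the transporter built from Tap1 and Tap2 carries them into the endoplasmic reticulum, tapasin (encoded by Tapbp) holds the transporter next to an empty class I molecule, and a heavy chain such as H2-K1 or H2-D1 pairs with the light chain B2m around the peptide. Nlrc5 is the transactivator that drives transcription of most of these genes, and interferons raise both it and them; resting muscle fibres are known for little class I on their surface.

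Both classical heavy chain genes lie in the MHC on mouse chromosome 17. In build mm9, H2-K1 is at chr17:34132962-34137278 on the minus strand and H2-D1 at chr17:35399675-35404444 on the plus strand. The stretch of 250 bases before the start of each gene is shown because the levels of these 2 genes had the highest correlation across mice of any pair among the 7. B2m, on another chromosome (chr2:121973422-121978819, plus strand), is shown for comparison. The sequences are from RefSeq, build GRCm38.p6, in which they lie at chr17:34000348-34000597 (H2-K1), chr17:35262844-35263093 (H2-D1) and chr2:122147437-122147686 (B2m). Each reads 5′ to 3′ on the gene's strand and ends at the base before the start, and capitals mark matches on either strand to 4 motifs: GGGNNTTCC (a core of κB elements, which bind NF-κB), GAANNGAAA (an interferon response core), TGACG (as in the X2 box) and CCAAT (as in the Y box).
H2-K1: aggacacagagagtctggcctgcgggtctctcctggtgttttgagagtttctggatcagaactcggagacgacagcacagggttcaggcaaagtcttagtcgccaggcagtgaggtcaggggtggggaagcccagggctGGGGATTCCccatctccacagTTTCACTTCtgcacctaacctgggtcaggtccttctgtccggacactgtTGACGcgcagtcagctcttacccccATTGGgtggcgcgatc
H2-D1: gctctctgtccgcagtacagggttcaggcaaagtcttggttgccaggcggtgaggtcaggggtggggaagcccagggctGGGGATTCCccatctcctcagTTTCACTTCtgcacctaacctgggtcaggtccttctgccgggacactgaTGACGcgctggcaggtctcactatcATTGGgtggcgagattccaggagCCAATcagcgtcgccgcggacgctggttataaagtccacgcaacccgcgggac
B2m: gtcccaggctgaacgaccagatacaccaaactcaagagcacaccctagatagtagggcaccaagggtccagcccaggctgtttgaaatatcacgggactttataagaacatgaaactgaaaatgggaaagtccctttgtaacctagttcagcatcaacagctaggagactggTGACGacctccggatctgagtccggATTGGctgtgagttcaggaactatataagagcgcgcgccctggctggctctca
H2-K1 and H2-D1 each held all 4 motifs in the same order. Of 27025 RefSeq promoters searched over the same 250 bases, 4.85% held the κB core, 6.35% the interferon core, 17.8% TGACG and 34.5% CCAAT. The spelling of the motifs was set after the sequences had been seen. These shares therefore do not test whether the matches in H2-K1 and H2-D1 are unusual. In H2-K1 the κB core ended 103 bases and the interferon core 82 bases before the start, and in H2-D1 these distances were 163 and 142 bases. B2m held TGACG and CCAAT, Tap1 held TGACG and CCAAT, and Tapbp held 2 copies of CCAAT. These matches describe the letters of the windows and do not show a bound site. Nor does a missing match show that an element is absent, because other spacings were not searched. The B2m window also reads gaaactgaaa, with the ends of the interferon core around a longer gap. It reads ggaaagtccc as well, with the ends of the κB core on the opposite strand around a longer gap. By symbol, 5 of the 7 genes were matched to a RefSeq promoter. Tap2 and Nlrc5 were not in the table.

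Tap1 (chr17:34324498-34334170), Tap2 (chr17:34340472-34353266) and Tapbp (chr17:34052844-34066235), all on the plus strand in mm9, lie in the same region, and Nlrc5 is at chr8:96996663-97051172 on the plus strand. The annotation of that build calls Nlrc5 a lincRNA and the other 6 genes protein coding. Heavy chain genes resemble each other, and reads with several alignments were left out of the counts. Of the 50-base windows in H2-K1 and H2-D1 transcripts, 83% and 85.4% occurred at 1 place in the genome, against 97.5% to 100% in the other 5 genes and only 34.8% in H2-Q7 and 31.9% in H2-T9. Tap1 overlaps Psmb9 on the opposite strand, B2m overlaps Patl2 there, Tap2 overlaps Gm15821 and Gm20496 there, and Tapbp overlaps Zbtb22 on its own strand, so counts of these genes could hold reads of a neighbour.

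Between 14843778 and 29076671 reads per library were counted on genes (median 20834472). Skeletal muscle markers were abundant in every library, with a summed level of 28752 to 169048 CPM over 7 genes. Salivary gland markers, 8 of 9 of which were listed, varied far more. Their summed level was 48903 to 66300 CPM at CFA 5d, 68.9 to 6702 CPM in CFA vehicle, 10388 to 131944 CPM in RPC, 63.9 to 48450 CPM in Col vehicle and 10.6 to 31.2 CPM at 10U Col 6d, with Smgc and Spt1 at 0 in these 5 groups. CFA vehicle replicate 3 stood apart from the other vehicle mice of its experiment, with 462 CPM of neutrophil markers against 2.18 and 3.19 CPM. The 11 libraries of 10U Col had 0.68% to 0.883% of reads assigned to more than 1 gene, against 0.147% to 0.318% in the other 20 libraries, Col vehicle included, and 10 genes reached 10 counts in each of the 11 but not more than 3 in any of the 20. A difference in counting and the effect of 10U Col therefore cannot be told apart for genes that overlap another gene. In bulk tissue, fewer cells of a type and less RNA per cell cannot be told apart either.

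In the 6 vehicle mice of both experiments, level per length differed widely among these genes. Per kb of uniquely alignable sequence, B2m stood at 452 ± 125 CPM (SD, n = 6), H2-D1 at 120 ± 32.9, H2-K1 at 119 ± 44.5, Tapbp at 29.8 ± 4.56, Tap2 at 9.78 ± 1.04, Tap1 at 2.85 ± 0.491 and Nlrc5 at 1.18 ± 0.379 CPM. H2-D1 and H2-K1 could not be ordered, with ranges of 80.5 to 170 and 71.6 to 193 CPM per kb. The light chain, which every class I heavy chain shares, was thus the most abundant transcript, the heavy chains followed, and the transactivator was the least abundant. No gene differed between the vehicle groups in edgeR's quasi-likelihood test (0 of 7, where 0.0426% of all tested genes passed in either direction; 0 of 7 also at an unadjusted p under 0.05 and in DESeq2), with log2 differences of -0.10 to 0.48.

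**Figure D1:**
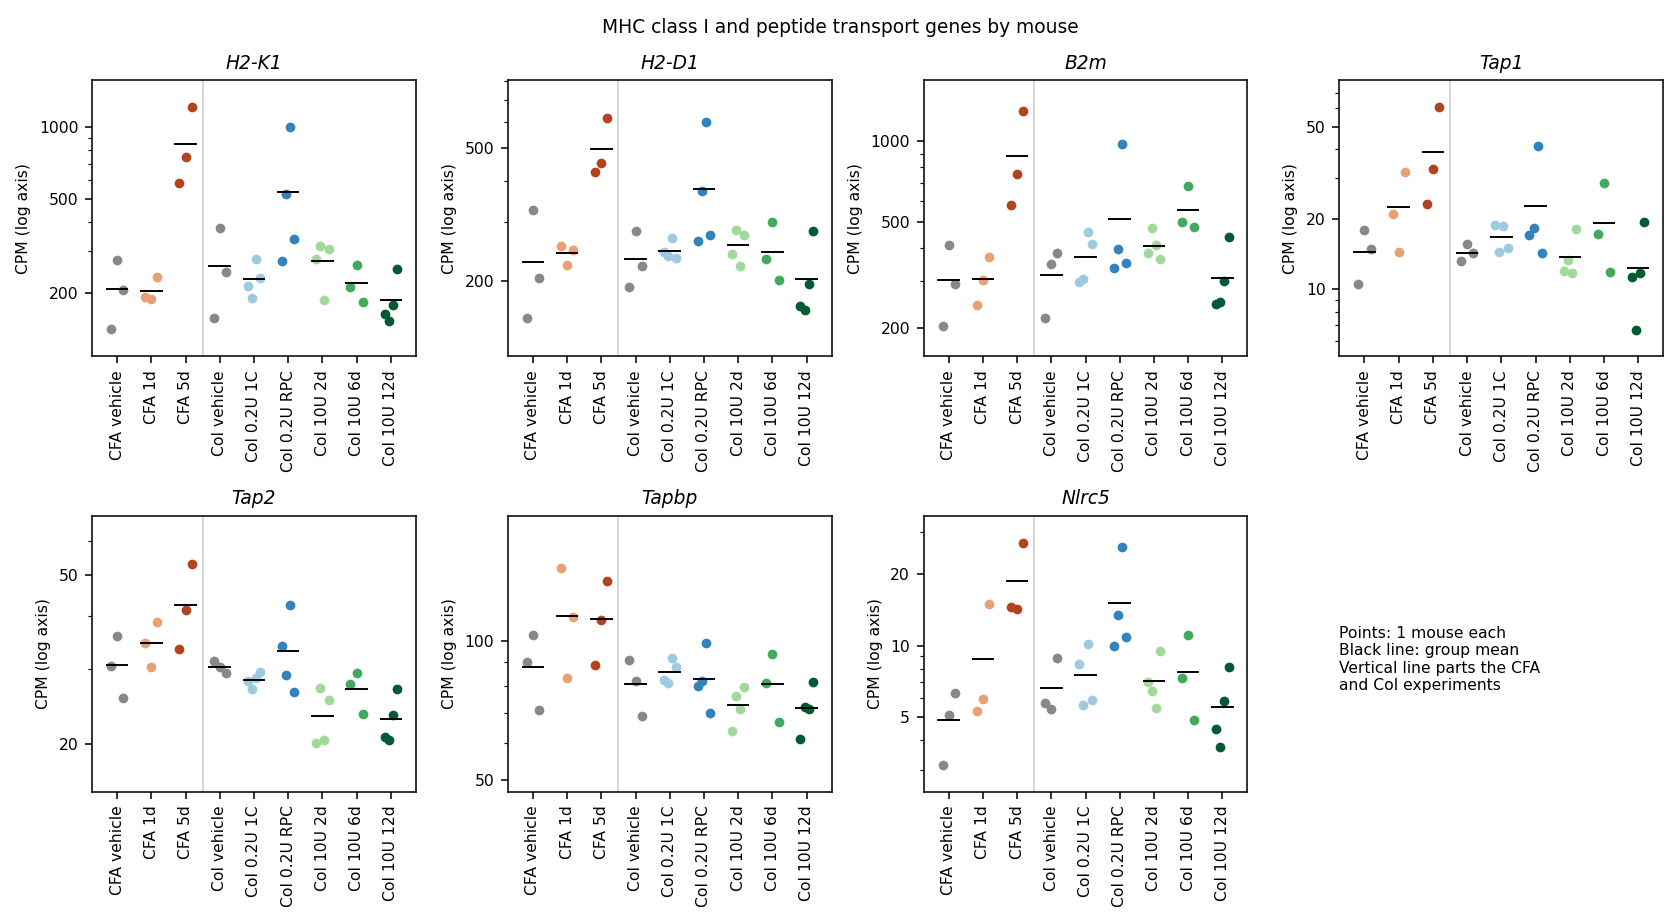
Level of each gene in CPM (log axis, a separate scale in each panel) in every mouse of the 9 groups. Points are mice and black lines group means. At CFA 5d the 3 mice sit above all CFA vehicle mice in 5 of 7 panels, RPC has 1 mouse far above the other 3 in most panels, and B2m alone is high at 10U Col 6d.

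CFA 5d gave the highest mean level of 6 of the 7 genes among the 9 groups, and Tapbp was the exception. H2-K1, one of the classical heavy chains, stood at 585, 750 and 1215 CPM in the 3 mice of CFA 5d, against 141, 277 and 207 CPM in CFA vehicle. Every CFA 5d mouse was above every vehicle mouse. The log2 difference was 2.08 (SE 0.37), or 4.24-fold, with an adjusted p of 0.0565 in edgeR's quasi-likelihood test (unadjusted p 0.000729), so it missed the threshold of 0.05.

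H2-D1, the other classical heavy chain, stood at 426, 452 and 617 CPM at CFA 5d and at 154, 326 and 204 CPM in CFA vehicle. The groups did not overlap, and the log2 difference was 1.18 (SE 0.31, edgeR adjusted p 0.135). B2m was at 578, 757 and 1304 CPM against 204, 411 and 293 CPM, again without overlap, a log2 difference of 1.59 (SE 0.39, edgeR adjusted p 0.116). In all 3 of these genes, CFA 5d replicate 3 was the highest mouse.

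Of the transporter genes, Tap1 was at 23.3, 32.8 and 61 CPM at CFA 5d and at 10.5, 17.9 and 14.9 CPM in vehicle, a log2 difference of 1.49 (SE 0.38, edgeR adjusted p 0.126) with no overlap. Its partner Tap2 was at 33.5, 41.2 and 52.9 CPM against 30.5, 35.8 and 25.7 CPM, and those ranges overlapped. The log2 difference of Tap2 was 0.52 (SE 0.21, edgeR adjusted p 0.316). Tapbp was at 88.7, 111 and 135 CPM against 90.3, 103 and 71.1 CPM, also overlapping, with a log2 difference of 0.39 (SE 0.20, edgeR adjusted p 0.461). Nlrc5 stood at 14.5, 14.3 and 27.1 CPM against 3.15, 5.11 and 6.29 CPM, without overlap, a log2 difference of 1.98 (SE 0.38, edgeR adjusted p 0.0655), or 3.95-fold.

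As a list, 0 of 7 genes passed at an adjusted p under 0.05 in edgeR at CFA 5d, where 1.11% of all tested genes passed. At an unadjusted p under 0.05, 6 of 7 were higher (10.3% of all tested genes), and DESeq2 called 5 (H2-K1, H2-D1, B2m, Tap1 and Nlrc5), where it called 710 genes higher and 182 lower of 13925 tested. The groups were apart in 5 of 7 genes, against 12.8% of all tested genes for higher values. The median log2 difference of the 7 genes was 1.49 and that of all tested genes -0.02. CFA vehicle replicate 3, the mouse with neutrophil markers, decided the edgeR calls: without it the same 5 genes passed, H2-K1 at 2.10 with an adjusted p of 0.00617 and Nlrc5 at 2.25 with 0.00283, and over all genes 1631 passed as higher and 531 as lower, instead of 149 and 6. That mouse also had 6702 CPM of salivary gland markers, against 82.5 and 68.9 CPM in the other vehicle mice. Its skeletal muscle markers summed to 82226 CPM, against 165952 and 169048 CPM. Without it the vehicle mice thus lay further from CFA 5d in salivary gland markers, and the part of any of these differences in the calls was not tested.

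At CFA 1d the heavy and light chains lay inside the vehicle range. H2-K1 was at 192, 190 and 234 CPM, and its log2 difference was -0.02 (SE 0.29). H2-D1 differed by 0.08 (SE 0.30) and B2m by 0.02 (SE 0.32). Values were larger for Tap1, at 0.64 (SE 0.34), and Nlrc5, at 0.86 (SE 0.50). Tap1 was at 21.1, 14.4 and 32 CPM, against 10.5, 17.9 and 14.9 CPM in vehicle. Nlrc5 had 1 high mouse (15 CPM). None of the 7 genes passed in edgeR at an adjusted or an unadjusted p under 0.05 or in DESeq2, and 0% of all tested genes passed in edgeR at this time.

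Compared directly with CFA 1d, CFA 5d was higher in 3 of the 7 genes, where 4.85% of all tested genes passed as higher and 5.84% in either direction. H2-K1 rose by 2.09 on the log2 scale (SE 0.32, edgeR adjusted p 0.0107), H2-D1 by 1.08 (SE 0.21, adjusted p 0.0283) and B2m by 1.56 (SE 0.35, adjusted p 0.046). These are the heavy and light chains of the molecule itself, and none of the transporter genes passed. Tap1 differed by 0.83 (SE 0.41, edgeR adjusted p 0.32), Tap2 by 0.34 (SE 0.20), Tapbp by 0.02 (SE 0.24) and Nlrc5 by 1.11 (SE 0.47, edgeR adjusted p 0.244). Only H2-K1 passed whichever of the 6 mice was left out. B2m passed in none of those 6 fits and H2-D1 only without CFA 1d replicate 1 (adjusted p 0.0409). The summed salivary gland markers moved with the same contrast, at 55.1 to 4072 CPM at CFA 1d.

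**Figure D2:**
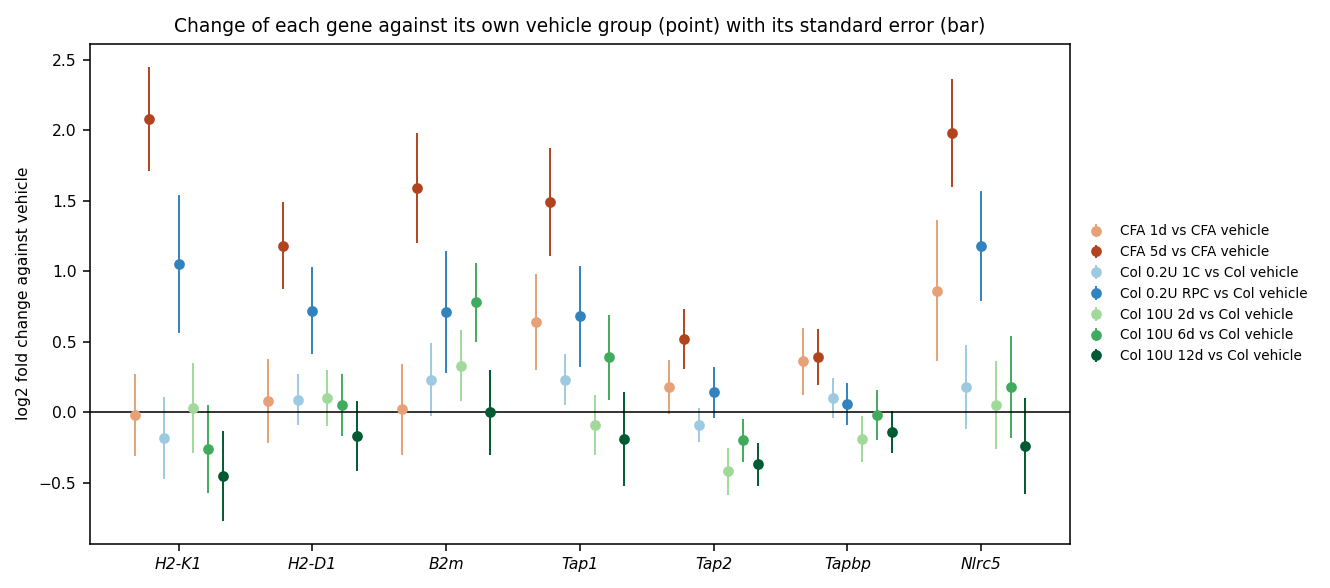
Log2 fold change of each gene against its own vehicle group (points) with the standard error (bars), for 7 comparisons. CFA 5d lies highest for every gene, up to 2.08 in H2-K1, RPC lies above 0.6 in 5 genes, and the 10U Col points lie within 0.5 of 0 except B2m at 6d (0.78).

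Low-dose Col was given to 2 groups, which were not tested against each other. In 1C, H2-K1 was at 215, 191, 279 and 231 CPM, inside the Col vehicle range of 158, 378 and 246 CPM. Log2 differences in 1C ran from -0.18 (H2-K1) to 0.23 (B2m and Tap1), 0 of 7 genes passed in edgeR or DESeq2, and 0 had an unadjusted p under 0.05. In edgeR, 0% of all genes tested in 1C passed.

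In RPC all 7 genes were above vehicle on average, by a median log2 difference of 0.71 against 0.01 for all tested genes, and none passed. H2-K1 was at 273, 526, 1006 and 337 CPM, overlapping Col vehicle, with a log2 difference of 1.05 (SE 0.49, edgeR adjusted p 0.394). H2-D1 was at 263, 372, 602 and 275 CPM against 192, 283 and 222 CPM in Col vehicle (0.72, SE 0.31, edgeR adjusted p 0.373). Nlrc5 was the only gene of the 7 whose RPC mice all stood above vehicle, at 9.91, 13.5, 26.1 and 10.9 CPM against 5.75, 5.39 and 8.82 CPM. Its log2 difference was 1.18 (SE 0.39, edgeR unadjusted p 0.0166 and adjusted p 0.299), and the groups were apart in 4.79% of all tested genes for higher values. At an unadjusted p under 0.05, Nlrc5 was the 1 gene of 7 that passed (6.33% of all tested genes were higher at that level). In edgeR and DESeq2, 0 of 7 genes passed in RPC after adjustment, and 0% of all tested genes passed in edgeR.

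RPC replicate 3 set much of this. It was the highest mouse for all 7 genes, with B2m at 975 CPM against 336, 395 and 352 CPM in the other 3 mice and Tap1 at 41.4 CPM against 17.1, 18.3 and 14.3 CPM. Without that mouse the log2 differences fell to 0.56 for H2-K1, 0.21 for B2m, 0.23 for Tap1 and 0.79 for Nlrc5. The same mouse had 87653 CPM of salivary gland markers, and RPC replicate 2 had more of them, at 131944 CPM, with lower levels of all 7 genes. RPC replicate 3 also had the fewest neutrophil markers of its group, at 3.27 CPM against 186 to 232 CPM.

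After 10U Col at 2d, all but 1 of the 7 genes overlapped vehicle. H2-K1 was at 278, 317, 187 and 307 CPM (0.03, SE 0.32) and B2m at 384, 473, 409 and 364 CPM against 219, 348 and 381 CPM (0.33, SE 0.25). Tap2 was lower in every mouse, at 20.1, 27.1, 20.5 and 25.4 CPM against 31.4, 30.3 and 29.4 CPM, with a log2 difference of -0.42 (SE 0.17, edgeR unadjusted p 0.036 and adjusted p 0.127), and groups were apart in 10.8% of all tested genes for lower values. In edgeR 0 of 7 genes passed, where 2.22% of all tested genes did, and DESeq2 also called 0. With both vehicle groups pooled, Tap2 passed at -0.43 (edgeR adjusted p 0.0306), in a fit where 2596 genes passed as higher and 2447 as lower of 14663 tested. Tap2 overlaps Gm15821 and Gm20496, so a difference in counting and the effect of 10U Col cannot be told apart for it.

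At 10U Col 6d, 27.3% of all tested genes passed in either direction, and 0 of the 7 class I genes were among them. B2m came nearest. It was at 499, 683 and 480 CPM, above every Col vehicle mouse, with a log2 difference of 0.78 (SE 0.28, edgeR unadjusted p 0.0233 and adjusted p 0.0697), and groups were apart in 26% of all tested genes for higher values. DESeq2 called it (adjusted p 0.0157), in a fit where 2441 genes passed as higher and 2645 as lower of 14276 tested. So did edgeR without Col vehicle replicate 3 (adjusted p 0.0432), where 3018 genes passed as higher and 2817 as lower of 14050 tested. B2m overlaps Patl2, so a difference in counting and the effect of 10U Col cannot be told apart for it. The heavy chains overlapped vehicle. H2-K1 was at 213, 264 and 184 CPM (-0.26, SE 0.31) and H2-D1 at 233, 300 and 201 CPM (0.05, SE 0.22). Tap1 was at 17.2, 28.5 and 11.8 CPM (0.39, SE 0.30), and Tap2, Tapbp and Nlrc5 had log2 differences of -0.20 to 0.18.

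The imbalance between the light chain and the heavy chains can be read within each library. The ratio of H2-K1 to B2m counts was 0.383 to 0.427 in the 3 mice of 10U Col 6d and 0.645 to 1.09 in the 3 Col vehicle mice, without overlap. At CFA 5d the same ratio was 0.932 to 1.01, and in CFA vehicle 0.673 to 0.704. The ratio of H2-D1 to B2m was 0.419 to 0.468 at 10U Col 6d and 0.581 to 0.879 in Col vehicle, again without overlap. At CFA 5d it was 0.473 to 0.736 and in CFA vehicle 0.694 to 0.792, so there H2-D1 lay below every vehicle mouse relative to B2m in 2 of 3 mice, while H2-K1 lay above them in all 3. No test was run on these ratios. B2m, which overlaps Patl2, is part of each of them. A difference in counting and the effect of 10U Col therefore cannot be told apart in the ratios at 10U Col 6d either. Macrophage markers, which include no member of the 7, summed to 1304 to 2680 CPM at 10U Col 6d and to 116 to 423 CPM in Col vehicle. Salivary gland markers summed to 10.6 to 31.2 CPM at 10U Col 6d and to 63.9 to 48450 CPM in Col vehicle. Their sum was 48903 to 66300 CPM at CFA 5d and 68.9 to 6702 CPM in CFA vehicle. The part of either set of markers in the level of B2m or in these ratios was not tested.

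By 10U Col 12d, all 7 log2 differences from vehicle lay below 0, from -0.45 in H2-K1 (163, 153, 178 and 254 CPM) to -0.14 in Tapbp and a value in B2m that rounds to 0.00. None passed in edgeR, where 1.23% of all tested genes did, or in DESeq2. Tap2 had an unadjusted p of 0.0329 in edgeR, at -0.37 (SE 0.15), with all 4 mice (20.8, 20.4, 23.4 and 27 CPM) below the 3 vehicle mice, as in 7.82% of all tested genes. Because Tap2 overlaps other genes, a difference in counting cannot be told apart from the effect of 10U Col here either. From 6d to 12d, B2m fell by 0.82 on the log2 scale (SE 0.25, edgeR adjusted p 0.0464) to 247, 250, 301 and 439 CPM, where 13% of all tested genes passed as lower and 26.4% in either direction. This call was lost when any mouse but 12d replicate 4 was left out, and 4 of the 7 genes passed without that mouse, B2m at -1.05 (adjusted p 0.00241), in a fit where 3554 genes passed as higher and 4133 as lower of 14194 tested. From 2d to 6d, 0 of 7 genes passed in edgeR (8.73% of all tested genes) or DESeq2, and 0 had an unadjusted p under 0.05.

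Whether CFA at 5d and 10U Col at 6d acted differently on these genes was tested as an interaction, each change taken against its own vehicle. H2-K1 passed: its change was larger after CFA by 2.35 on the log2 scale (SE 0.52, edgeR adjusted p 0.0191), and it passed in all 12 fits that left out 1 mouse. With the salivary gland marker sum as a covariate, an alternative chosen after the data had been seen, it did not pass, at 1.38 (adjusted p 0.355), in a fit where 23 genes were higher and 57 lower of 14892 tested. The salivary gland markers moved with this contrast, by a median log2 difference of 15.3 with 6 of 6 tested markers called. At CFA 5d their sum lay above every CFA vehicle mouse, and at 10U Col 6d below every Col vehicle mouse. The covariate and the groups therefore cannot be told apart in that fit, and the part of these markers in the result was not tested. Of all tested genes, 6.96% passed in this direction and 11.3% in either. Nlrc5 differed by 1.80 (SE 0.55, edgeR adjusted p 0.0564), H2-D1 by 1.13 (SE 0.40, adjusted p 0.0868) and Tap2 by 0.73 (SE 0.25, adjusted p 0.078), and these missed the threshold in edgeR. DESeq2 called H2-D1 and Nlrc5 as well, in a fit where 1515 genes were higher and 1249 lower of 14851 tested. B2m, which was high in both groups, differed by 0.81 (SE 0.50, edgeR adjusted p 0.301). In the comparison of CFA 1d with 10U Col 2d, 0 of 7 genes passed in edgeR (0.0946% of all tested genes) or DESeq2, and 1 (Tap2) had an unadjusted p under 0.05, at 0.62 (SE 0.24).

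Ordered by mean level over the 9 groups, H2-K1 ran from 850 ± 327 CPM (SD, n = 3) at CFA 5d and 536 ± 332 CPM (n = 4) in RPC through 272 ± 59.3 CPM at 10U Col 2d to 187 ± 45.5 CPM (n = 4) at 10U Col 12d. H2-D1 ran from 498 ± 104 CPM at CFA 5d to 202 CPM at 10U Col 12d in the same first 3 places. For B2m, 10U Col 6d came second, at 554 ± 112 CPM, between CFA 5d and RPC. For each of the 7 genes the values of all 8 pairs of neighbours in the order overlapped, so no step between neighbouring groups exceeded the spread over mice. Within a gene, the lowest and highest mouse were 141 and 1215 CPM for H2-K1, 154 and 617 CPM for H2-D1 and 61.3 and 144 CPM for Tapbp.

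H2-K1 and H2-D1 did not move in fixed proportion. The ratio of H2-K1 to H2-D1 counts was 1.38, 1.66 and 1.97 at CFA 5d, and 0.911, 0.85 and 1.01 in CFA vehicle. Across all 31 libraries it followed the salivary gland markers. In the 13 libraries with over 10000 CPM of these markers the ratio was 1.04 to 1.97, and in the other 18 it was 0.754 to 1.01, so the ranges did not overlap. That limit was set after the values had been seen. The 13 libraries came from 5 groups (CFA 5d, RPC, 1C, Col vehicle and 10U Col 2d), and the salivary gland markers and the ratio are from the same libraries. Of Col vehicle, replicate 1, with 63.9 CPM of salivary gland markers, had a ratio of 0.823, and replicate 2, with 48450 CPM, had 1.34. H2-K1 itself was 246 to 1215 CPM in the 13 libraries and 141 to 277 CPM in the 18, whereas Tapbp was 63.9 to 135 CPM and 61.3 to 144 CPM.

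**Figure D3:**
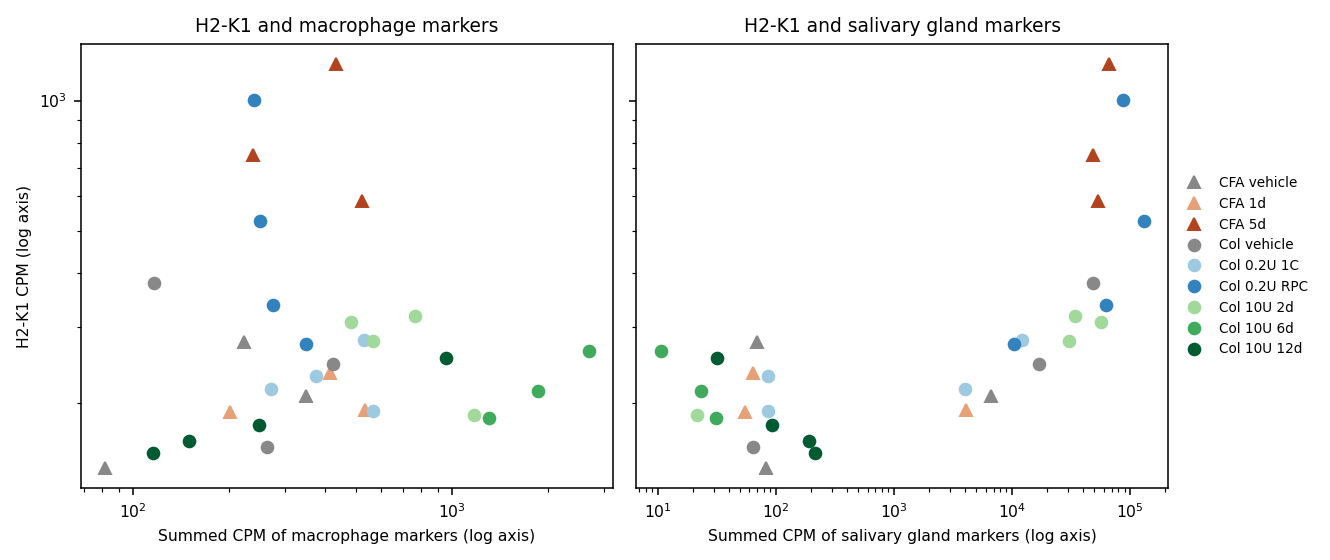
H2-K1 level (CPM, log axis) in each of 31 mice against the summed CPM of macrophage markers (left) and salivary gland markers (right), both on log axes. Triangles are mice of the CFA experiment and circles mice of the Col experiment. The 10U Col 6d mice have the highest macrophage sums, 1304 to 2680 CPM, with H2-K1 at 184 to 264 CPM, and all mice with H2-K1 above 277 CPM have over 10000 CPM of salivary gland markers.

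Markers of other cells and tissues were read in the same libraries at CFA 5d. Skin markers summed to 28.9 to 33.7 CPM against 4.83 to 10.8 CPM in CFA vehicle, with 1 of 3 tested called higher (Krt5), and bone markers to 20.1 to 29.6 CPM against 51.6 to 144 CPM, with 1 of 2 tested called lower (Alpl), both without overlap. Of all tested genes, 1.11% passed in either direction. Leukocyte markers summed to 69 to 138 CPM at CFA 5d and to 15 to 118 CPM in CFA vehicle, and macrophage markers to 238 to 523 CPM and 81.5 to 348 CPM, so both overlapped. NK cell markers were at 3.65 to 9.04 CPM against 0.0404 to 3.35 CPM, without overlap. Of 5 tested NK cell markers 0 passed in edgeR, and the groups were apart in 4. Groups were apart in 12.8% of all tested genes for higher values. The vehicle sums of 0.0404 and 0.137 CPM rested on few reads. The part of salivary gland, skin, bone, NK cells or other tissue in the class I levels was not tested by cell type. With the salivary gland marker sum as a covariate in the same fit of all 31 libraries, the CFA 5d difference from vehicle was 1.64 for H2-K1, 1.5 for B2m, 1.34 for Tap1 and 1.72 for Nlrc5, and none of the 7 passed (edgeR adjusted p 0.414 to 0.889), nor did any of 14026 genes tested. In that fit 0 of the 7 passed for CFA 5d against 1d, where 5 genes were higher and 48 lower of 14046 tested. The salivary gland marker sums of CFA 5d did not overlap those of CFA vehicle or CFA 1d. The covariate and the group therefore cannot be told apart in these comparisons.

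The 7 genes varied together to unequal degrees over the 31 mice. Pearson's r of log2 CPM was 0.96 for H2-K1 with H2-D1, 0.87 for Tap1 with Nlrc5, 0.86 for H2-K1 with Nlrc5 and 0.84 for Tap2 with Tapbp, and the lowest was 0.37 for B2m with Tapbp. These values describe 31 libraries that share groups, depth and tissue composition. Among 15519 other genes, those most like the mean standardized level of the 7 included Irf9 (r = 0.91), Psmb8 (0.89), Irf7 (0.85), Ly6e (0.84), H2-T23 (0.84), Adar (0.83), Shisa5 (0.83), Pml (0.82) and Sp100 (0.82). At CFA 5d, Irf9, a subunit of the factor that interferons activate, was at 35.5 to 63.9 CPM against 16.8 to 20.6 CPM in vehicle with a log2 difference of 1.53 (SE 0.23). Pml (1.65, SE 0.22) and Sp100 (1.49, SE 0.24) encode proteins of nuclear bodies, and Psmb8, Irf7, Ly6e, H2-T23, Adar and Shisa5 had log2 differences of 1.06 (Psmb8) to 3.83 (Irf7). These genes were chosen for following the 7 over the same mice, CFA 5d included, so their values there are a description.

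The rest of the pathway was read from lists. At CFA 5d, 1.11% of all tested genes passed in edgeR in either direction, and 10.3% were higher at an unadjusted p under 0.05. The share of all genes that were lower at that level is not given here. In the immunoproteasome, which makes peptides suited to class I, 0 of 5 genes passed in edgeR at CFA 5d, 1 had an unadjusted p under 0.05, all 5 had differences above 0, and the median was 0.43 (all tested genes -0.02). Psmb8 was at 1.06 (SE 0.30, edgeR adjusted p 0.155) and Psmb9 at 0.43 (SE 0.35). Of 15 tested among 21 other heavy chain genes, 0 passed, 6 were higher and 2 lower at an unadjusted p under 0.05, and 11 were above 0, with a median of 0.91. H2-T23, which encodes the ligand of the NK receptor CD94/NKG2A, was at 40.3 to 96.4 CPM against 18.6 to 27.6 CPM in CFA vehicle, a log2 difference of 1.61 (SE 0.33, edgeR adjusted p 0.0764), and against CFA 1d the difference was 1.83 (SE 0.32). Of 11 loading and trimming genes, 1 passed as higher, Sec61b, a translocon subunit (1.75, SE 0.28, edgeR adjusted p 0.0447), and the median was 0.25. The salivary gland marker sums of CFA 5d and CFA vehicle did not overlap, and their part in the Sec61b call was not tested. Calr, the chaperone calreticulin, was at 0.08 (SE 0.23) and Canx, calnexin, at 0.38 (SE 0.22).

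Among 15 regulators, Irf9 alone passed at CFA 5d in edgeR, where 1.11% of all tested genes passed. Irf1, a direct activator of class I genes, was at 0.19 (SE 0.19). Of 14 interferon-stimulated genes 0 passed in edgeR and 10 were higher at an unadjusted p under 0.05, against 10.3% of all tested genes. All 14 were above 0, and their median was 2.00. Gbp2 was at 0.35 (SE 0.30), Gbp3 at 1.60 (SE 0.54) and Irf7 at 3.83 (SE 0.75), the last with an edgeR adjusted p of 0.0697. Ifng, the gene of interferon gamma, had no more than 8 counts in any library and was not tested. In the MHC class II list, 0 of 6 passed in edgeR, 5 were higher at an unadjusted p under 0.05 (10.3% of all tested genes) and 6 of 6 were above 0, with a median of 1.25 and H2-Aa at 1.42 (SE 0.49, edgeR adjusted p 0.248).

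At 10U Col 6d the same lists were read against Col vehicle, with no test between lists. In edgeR 5 of 6 MHC class II genes were higher, with H2-Ab1 at 1.57 (SE 0.22, adjusted p 0.00481), H2-Aa at 1.19 (SE 0.18, adjusted p 0.00621) and Cd74, the invariant chain, at 1.16 (SE 0.24, adjusted p 0.0146), beside a background of 14% of tested genes called higher. Ciita, the class II counterpart of Nlrc5, rose by 1.82 (SE 0.37, edgeR adjusted p 0.0144), while Nlrc5 was at 0.18 (SE 0.36). All 8 macrophage markers and 6 of 14 interferon-stimulated genes were higher, among them Oas2 at 1.62 (SE 0.33, edgeR adjusted p 0.0148) and Mx1 at 2.65 (SE 0.61, adjusted p 0.021). The chaperones Pdia3 (1.34, SE 0.22, edgeR adjusted p 0.0077), Canx (0.83, SE 0.18, adjusted p 0.0177) and Calr (0.77, SE 0.20, adjusted p 0.0281), which fold many glycoproteins besides class I, were higher, and Ide, a peptide-degrading enzyme, fell by 1.02 (SE 0.18, adjusted p 0.0101). In the list drawn up as receptors for class I, 5 of 8 genes were tested. Klrd1 (2.89, SE 0.65, edgeR adjusted p 0.0196), Lilrb4 (2.75, SE 0.69, adjusted p 0.0266) and Lilrb3 (1.94, SE 0.56, adjusted p 0.039) rose. Lilrb4 is named as a gene of that list, and its binding of class I is not taken as given here. In the immunoproteasome 0 of 5 and among other heavy chains 0 of 12 tested genes passed in edgeR, also at an unadjusted p under 0.05, with medians of -0.01 and -0.22.

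**Figure D4:**
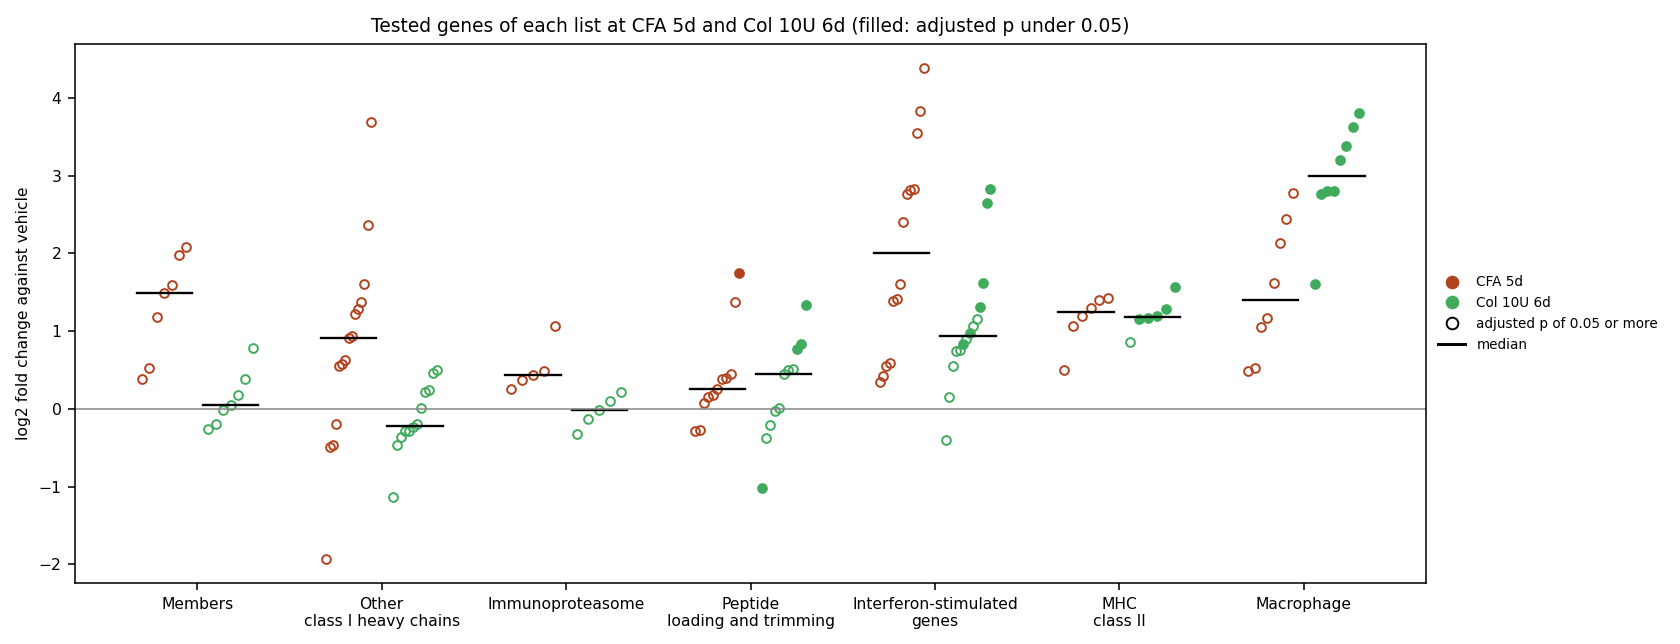
Log2 fold change against vehicle of the tested genes of 7 lists at CFA 5d and at 10U Col 6d. Each circle is a gene, filled where edgeR's adjusted p is under 0.05, and black lines are medians. The class I list has a median of 1.49 with no filled circle at CFA 5d and of 0.05 at 10U Col 6d, whereas 5 of 6 class II genes and 8 of 8 macrophage markers are filled at 10U Col 6d.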

How the data were processed

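Bulk RNA-seq was done on MM of 31 mice in 9 groups. The authors made stranded poly(A) libraries with single-end reads, aligned them to mm9 with TopHat2, and deposited raw counts per gene symbol, 1 table a library, without normalization. HTSeq and bcl2fastq are also named in the submitters' processing notes. Whether strand was used in counting is not given in the sources used here. Closing lines that name no gene were kept out of library sizes and tests, and multiply aligned reads, 1 such line, made up 34.6% to 47.9% of each table.

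The quasi-likelihood test of edgeR 4.0.16 (R 4.3.3) was run on TMM-scaled counts with group as the only factor, for genes that reached 10 counts in 3 or more of the libraries compared. Benjamini-Hochberg adjustment covered every gene tested, and SE was taken as |log2 fold change|/√F. Interactions were fitted on 4 groups. Alternatives were DESeq2 1.42.0, edgeR with DESeq2 size factors, dropping the filter on low counts, 1 fit shared by 31 libraries, a replicate block, the study's thresholds (adjusted p under 0.05, fold change over 2, RPKM over 1), pooled vehicle groups and leaving out each mouse. The scripts were tested on simulated data. Replicates are separate mice. All CFA comparisons share 3 vehicle mice and all Col comparisons another 3. None of 465 pairs of libraries were identical.

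The 7 genes and the lists were chosen with earlier results of these data known. Genes named were the 7, the 10 most correlated with their mean, and 2 to 4 a list, in list order or, where called, by smallest p. Krt5 and Alpl were named because each was the called gene of its marker list. H2-T23 and Irf7 were named as genes of the 10, and 1 of the 10 is not reported here. H2-Q7, H2-T9, Irf1, Ifng, Ciita, Cd74 and Mx1 were named for their roles after their values had been seen. Same-numbered mice deviated together (r over 0.1 in every pair) in 2 comparisons, CFA 1d against CFA vehicle (0.131 to 0.426) and the vehicle groups (0.11 to 0.603), and the replicate block changed no call there. The spelling of the promoter motifs was set after the sequences had been seen. Unique windows were counted in mm9 with GENCODE vM1.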

Additional observations from a re-analysis of the deposited data

Results flagged for a closer look

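In a search of 28 groups of 4 mice (7 genes in 4 groups), 2 values stood apart by Dixon's criterion, a gap to the nearest mouse larger than the criterion's 95% limit as a share of the group's range, and chance gives about 1 in 20. Both came from 1 mouse, RPC replicate 3, with B2m at 975 CPM (gap 0.908 of the range) and Tap1 at 41.4 CPM (0.85). Groups of 3 mice were not searched. The change of H2-K1 after CFA at 5d exceeded that after 10U Col at 6d by 2.35 on the log2 scale in the interaction test of edgeR (adjusted p 0.0191). It did not pass with the salivary gland marker sum as a covariate (1.38, edgeR adjusted p 0.355). Those markers differed by a median log2 of 15.3 in the same contrast, so that fit cannot tell them apart from the groups.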

How the results depend on the processing

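Of the 7 genes, the number passing at CFA 5d against vehicle was 0 and became 5 with DESeq2 (710 genes higher and 182 lower of 13925 tested). It became 2 with 1 fit shared by all libraries (H2-K1, edgeR adjusted p 0.0217, and Nlrc5, 0.0462), where 59 genes were higher and 8 lower of 14026 tested. With the replicate block it became 1 (Nlrc5, edgeR adjusted p 0.0416), where 123 genes were higher and 7 lower. With pooled vehicle groups it stayed 0, where 0 genes were higher and 0 lower of 14447 tested. With 1 mouse left out it was 0 to 5, the 5 without CFA vehicle replicate 3, where 1631 genes were higher and 531 lower of 13819 tested. At 10U Col 2d it was 0 and became 1 with pooled vehicle groups (2596 genes higher and 2447 lower of 14663 tested). At 10U Col 6d it was 0 and became 1 with DESeq2, where 2441 genes were higher and 2645 lower of 14276 tested. It also became 1 with pooled vehicle groups, where 2981 genes were higher and 2894 lower of 14685 tested, and 0 to 1 with 1 mouse left out. For 12d against 6d it was 1 and became 0 without the low-count filter (B2m adjusted p 0.0519), 0 in the shared fit, 0 with the study's thresholds, 0 with the salivary gland covariate (added after the data had been seen) and 0 to 4 with 1 mouse left out. The 4 came without 12d replicate 4, where 3554 genes were higher and 4133 lower of 14194 tested. For CFA 5d against 1d it was 3 and became 0 with the salivary gland covariate (5 genes higher and 48 lower of 14046 tested) and 1 to 2 with 1 mouse left out. The replicate block added Nlrc5 (1.22, edgeR adjusted p 0.0364), in a fit where 619 genes were higher and 116 lower of 14046 tested. For the interaction of CFA 5d and 10U Col 6d it was 1 and became 3 with DESeq2, where 1515 genes were higher and 1249 lower of 14851 tested. It became 0 with the salivary gland covariate, where 23 genes were higher and 57 lower of 14892 tested, and 1 to 2 with 1 mouse left out. In the other 7 comparisons the count stayed 0 to 0 with 1 mouse left out. The cause of these moves was not tested. H2-K1 for 6d against 2d was -0.29 and turned to 0.16 with the salivary gland covariate. The block changed no other call, and same-numbered mice are different animals. Of 1351 log2 differences of single genes under alternatives, 25 came to pass the threshold and 25 no longer passed it, and the sign changed in 24 of 672 with all libraries kept and in 61 of 679 with 1 left out. Depth limits what can be said of genes with few counts, such as Ifng, and 3 or 4 mice a group limit the rest.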
